A study of Mus musculus with 16 samples.

Results

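The mitosis genes described here are 42 genes whose products drive, build or check the division of a cell: cyclins and their kinase, mitotic kinases, the anaphase machinery, the centromere and kinetochore, the spindle, cytokinesis and chromosome structure. They were matched by gene symbol. Of the 42, 41 had a row among the 17715 entries of the deposited table, and Kif4 was not analysed here. Their transcripts were measured by RNA sequencing in endothelial cells, the lining of blood vessels, sorted by flow cytometry from the lungs of female C57BL/6N mice. The 4 groups were wild-type mice without a tumour (d0), mice bearing a primary tumour after implantation of Lewis lung carcinoma (LLC) cells under the skin (d15), mice whose primary tumour had been resected (d22), and mice bearing metastases (d36). LLC is a mouse lung carcinoma line, so tumour and host transcripts map to the same genes. The mice of d15, d22 and d36 all received LLC cells, and the d0 mice did not, so tumour history and time cannot be told apart in a comparison with d0. No later mice without a tumour were among the samples used here.

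Each group had 4 libraries, which the series text calls independent biological replicates. By their titles the d0 libraries are replicates 1 to 4, the d15 libraries 3 to 6, the d22 libraries 1 and 4 to 6, and the d36 libraries 1 and 7 to 9. Values of a group are given in this order. The title of d36 replicate 1 names day 29 while its time point field names d36, and it was kept in d36. The d36 libraries stood apart from each other: across entries their pairwise r ran down to 0.920, against 0.978 or more within each other group. Values are RPKM (reads per kilobase of transcript per mega reads). The approximate depth was 93.4 to 152.2 M reads per library, so that 0.1 RPKM stands for about 9.34 reads per kilobase in the shallowest library. Pecam1 and Cdh5, junction proteins that define endothelium, were high in all 16 libraries, with 564 to 678 RPKM for Pecam1 at d36 against 645 to 731 RPKM at d0, and 248 to 331 RPKM for Cdh5 at d36 against 343 to 382 RPKM at d0.

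As background, entry into mitosis is driven by the active kinase Cdk1 bound to cyclin B. Chromosomes condense, microtubules attach to their kinetochores, and a checkpoint holds the cell until every chromosome is attached. The anaphase-promoting complex then marks cyclin B and securin for destruction, sister chromatids part, and cytokinesis splits the cell. Most of these genes are transcribed late in the cell cycle and are kept silent in resting cells by the DREAM complex, so that their messages are low in tissue that does not divide. Adult lung endothelium is known to divide rarely. In a bulk library, a higher level can come from more dividing cells or from more transcript per cell, and these cannot be told apart.

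Promoters of late cell-cycle genes are known to hold a cell cycle genes homology region (CHR), which is bound by the core of DREAM, and CCAAT boxes, which bind NF-Y. RefSeq promoter windows (GRCm38.p6, 250 bases before to 50 bases after the start) were matched by symbol for 37 of the 42 genes, in 39 windows, and not for Aurkb, Ccna2, Kif20a, Smc4 and Tpx2. The CHR words TTTGAA and TTCGAA, searched on both strands, were in the windows of 86.5% of these 37 genes, against 21.7% of all 27025 genes with a window. CCAAT, on both strands, was in 83.8% of the members and in 41.1% of all genes. Both words were in 78.4% of the members and in 8.61% of all genes, and the words overlapped at 1 place among the members. The members' CHR words clustered at the start: 78.4% of the members had one that began within 60 bases before to 50 bases after it, against 6.79% of all genes. No CHR word was found in the windows of Birc5, Ccnb1, Cenpe, Nuf2 and Nusap1. Among 52 other mitosis genes with a window 55.8% held a CHR word and 59.6% CCAAT. Among 28 DNA replication genes with a window the shares were 21.4% for the CHR words and 64.3% for CCAAT. A word is a match of letters and not a measured binding site.

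The 110 bases before the start are shown for the 4 members with the highest mean RPKM at d36 whose stretch holds both words and lies at most 30 bases inside the annotated gene. Capitals mark CHR and CCAAT words on either strand, and each sequence runs 5′ to 3′ in the direction of transcription.
Ube2c: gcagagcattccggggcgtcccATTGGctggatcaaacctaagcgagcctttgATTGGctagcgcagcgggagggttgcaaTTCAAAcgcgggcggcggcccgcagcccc
Cdk1: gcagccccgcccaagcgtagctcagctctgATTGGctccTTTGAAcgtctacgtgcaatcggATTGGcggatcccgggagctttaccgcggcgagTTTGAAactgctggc
Top2a: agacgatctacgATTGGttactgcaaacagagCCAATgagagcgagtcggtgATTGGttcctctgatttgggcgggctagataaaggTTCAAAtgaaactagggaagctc
Cdc20: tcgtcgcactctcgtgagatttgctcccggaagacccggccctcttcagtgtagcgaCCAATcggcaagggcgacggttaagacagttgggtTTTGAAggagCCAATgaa
In GRCm38 these are chr2:164769819-164769928 on the plus strand, chr10:69352913-69353022 on the minus strand, chr11:99024190-99024299 on the minus strand and chr4:118437344-118437453 on the minus strand. The CHR word nearest to the start began 29 bases before it in Ube2c, 15 in Cdk1, 23 in Top2a and 18 in Cdc20. The nearest CCAAT word before that CHR word began 28 bases ahead of it in Ube2c, 33 in Cdk1, and 35 in both Top2a and Cdc20. All 4 genes were higher at d36 than at d0 in the limma fit described further on, but they had been picked by their level at d36. The relation of the words to the change was not tested.

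**Figure D1:**
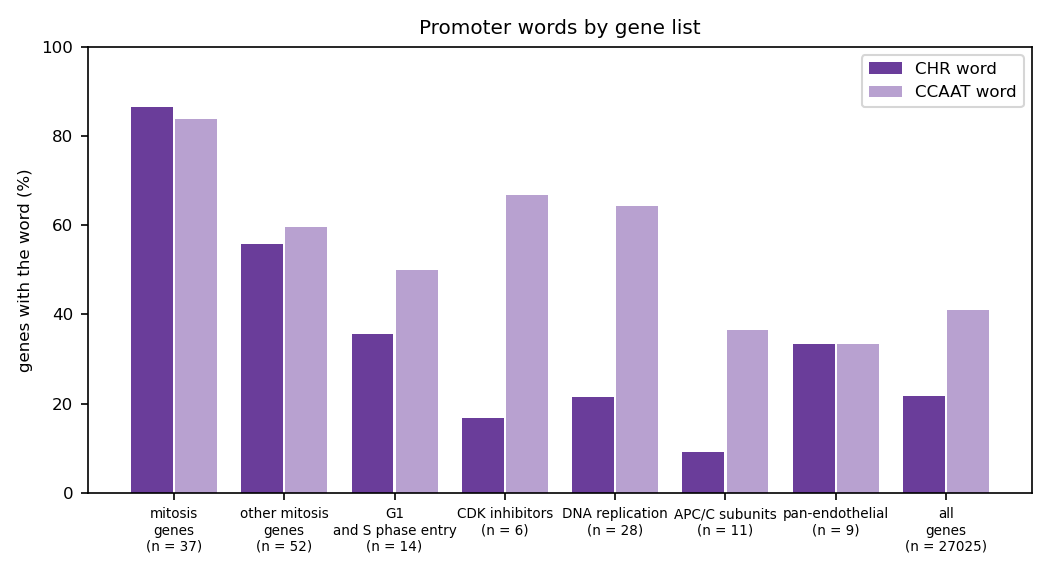
Share of genes (%) whose RefSeq promoter window holds a CHR word (dark bars) or a CCAAT word (light bars), for the mitosis genes, the other cell-cycle lists, pan-endothelial genes and all genes. The mitosis genes stand highest for both words, at 86.5% and 83.8%, against 21.7% and 41.1% of all genes.

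The summed level of the 41 genes shows the pattern that the single genes repeat. In RPKM, the d0 libraries had 18.3, 16.3, 15.4 and 17.5, the d15 libraries 19.9, 18, 17.1 and 17.8, the d22 libraries 68.5, 29.6, 31.5 and 20.2, and the d36 libraries 394, 239, 268 and 42.9. The d0 and d15 libraries lay close together, the d22 libraries spread upwards from them, and 3 of the 4 d36 libraries stood far above all others. Replicate 9 of d36 lay below replicate 1 of d22. In the median member the level was 0.763 to 6.71 RPKM over the d36 libraries, 0.296 to 1.43 RPKM at d22, 0.148 to 0.250 RPKM at d15 and 0.132 to 0.191 RPKM at d0.

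**Figure D2:**
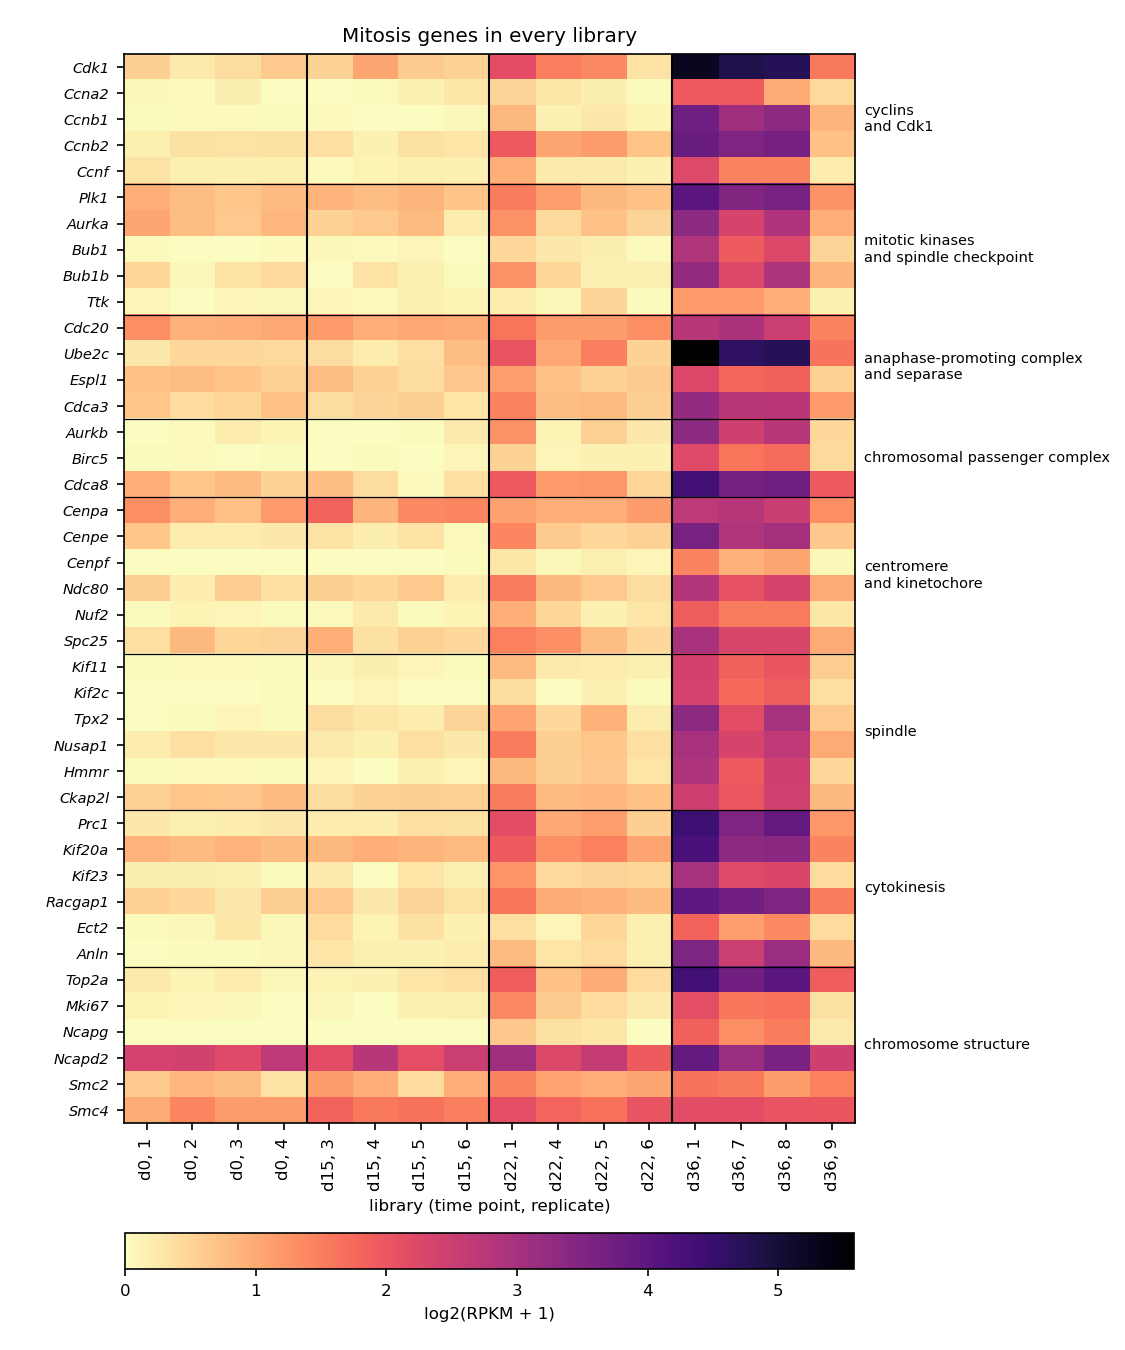
Level of each of the 41 mitosis genes (rows, by role) in each of the 16 libraries (columns, in the order d0, d15, d22, d36), as log2(RPKM + 1) in colour. Darker colour is higher. Replicates 1, 7 and 8 of d36 are darkest in nearly every row, while replicate 9 of d36 resembles replicate 1 of d22.

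Metastasis-bearing lungs (d36) were compared with lungs without a tumour (d0) to see which of the genes changed in the endothelial sort at the metastatic stage. Every one of the 27 genes that passed the filter on low values (at least 1 RPKM in at least 4 libraries) was higher at d36, and 0 were lower (limma on log2(RPKM + 1), Benjamini-Hochberg adjusted p under 0.05 over all tested entries). Of all 14303 entries tested, 16.6% were called higher and 7.37% lower. The members had been chosen with earlier results of these data known, so their count is not independent of those results. The members' log2 fold changes ran from 0.81 (Smc2) to 3.74 (Ube2c), with a median of 1.98 against 0.04 over all entries. Some members that passed the filter reached 1 RPKM only in d36 replicates 1, 7 and 8 and d22 replicate 1. These were Bub1b, Espl1, Aurkb, Cenpe, Ndc80, Tpx2, Nusap1, Ckap2l, Kif23 and Mki67. They had to be high at d36 to be tested, here and against d15 and d22, and the 27 are not all members. Without the filter 41 of 41 were called higher, with 17.7% of all 17645 entries as background. The fold changes are on the log2(RPKM + 1) scale and understate the change of genes with low values. Leaving out d36 replicate 1, 7 or 8 left 17 members past the filter, of which 16, 17 and 16 were called higher. Without the filter these 3 fits called 39, 40 and 40 of 41. In 36 of the 41 genes every d36 library was above every d0 library, against 14.8% of all entries. The other 5 were Ccnf, Aurka, Espl1, Cenpe and Ncapd2, in each of which d36 replicate 9 was below at least 1 d0 library.

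**Figure D3:**
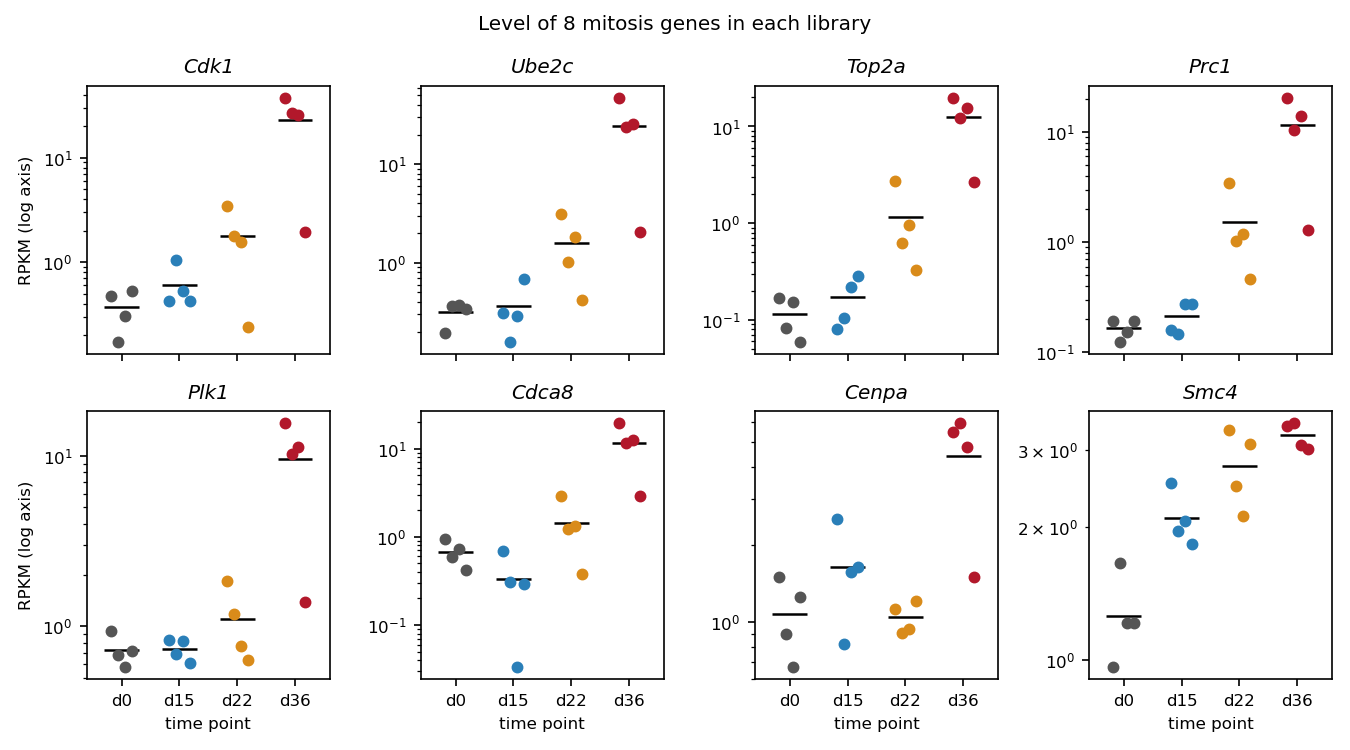
RPKM of 8 mitosis genes in each library (points, log axis) by group in the order d0, d15, d22, d36, with a line at the group mean. In all panels but that of Smc4, d36 replicates 1, 7 and 8 lie above every other point and replicate 9 lies far under them; in Smc4 the 4 d36 points are close together.

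Cyclins and Cdk1 were the first role examined. Cdk1, the kinase that drives entry into mitosis (chr10:69335146-69352912, mm10), had 0.472, 0.174, 0.305 and 0.533 RPKM at d0, 0.425, 1.05, 0.526 and 0.43 RPKM at d15, 3.44, 1.8, 1.57 and 0.24 RPKM at d22 and 37.1, 26.9, 25.7 and 1.94 RPKM at d36. Replicates 1, 7 and 8 of d36 were above every other library, and replicate 9 of d36 lay between replicates 1 and 4 of d22. Its mean was 22.9 ± 14.9 RPKM at d36 against 0.371 ± 0.163 RPKM at d0 (SD, n = 4 each), and the log2 fold change was 3.64 ± 0.57, adjusted p = 0.000389 (limma, ± SE here and below). These SE values use a spread per gene shared by the 4 groups, so they can understate the spread at d36 where that is widest. A fit of only d36 and d0, for which the share of all entries called was not computed, called 25 of the 27 tested members higher. Ccnb2, a B-type cyclin and partner of Cdk1, had 0.112, 0.26, 0.253 and 0.266 RPKM at d0, 0.29, 0.097, 0.272 and 0.225 RPKM at d15, 2.88, 1.06, 1.2 and 0.6 RPKM at d22 and 13.1, 10.4, 11.6 and 0.633 RPKM at d36. It was higher at d36 than at d0, by 2.63 ± 0.48, adjusted p = 0.00113 (limma). Ccnb1, the main mitotic cyclin (chr13:100778739-100786486), did not pass the filter and had 0.0294, 0.0394, 0.0415 and 0.0224 RPKM at d0, 0.045, 0, 0 and 0.06 RPKM at d15, 0.759, 0.0973, 0.182 and 0.089 RPKM at d22 and 12.3, 7.49, 9.02 and 0.821 RPKM at d36. All 4 d36 libraries exceeded all other libraries for Ccnb1, with 2.71 ± 0.42, adjusted p = 0.000529 in the limma fit without the filter. Ccna2, the cyclin of S phase and early mitosis, had 2.86, 2.82, 0.996 and 0.34 RPKM at d36 against 0.0613, 0.0328, 0.135 and 0 RPKM at d0, with all d36 libraries above those of d0. It did not pass the filter, and the fit without it gave 1.25 ± 0.25, adjusted p = 0.0024 (limma). Ccnf, which encodes the F-box protein cyclin F, had 3.67, 1.74, 1.67 and 0.159 RPKM at d36 against 0.25, 0.122, 0.124 and 0.112 RPKM at d0, and its d36 replicate 9 overlapped the d0 range.

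In each of the 5 mitotic kinase and spindle checkpoint genes replicate 9 was the lowest d36 library. Plk1, the polo kinase of centrosome maturation and spindle assembly (chr7:122159435-122169884), had 0.938, 0.679, 0.579 and 0.718 RPKM at d0, 0.831, 0.685, 0.827 and 0.608 RPKM at d15, 1.84, 1.18, 0.766 and 0.639 RPKM at d22 and 15.5, 10.3, 11.3 and 1.4 RPKM at d36. The d36 libraries did not overlap those of d0, and the log2 fold change was 2.32 ± 0.40, adjusted p = 0.000754 (limma). Aurka, the Aurora kinase of the spindle poles, had 1.06, 0.692, 0.536 and 0.789 RPKM at d0, 0.431, 0.545, 0.747 and 0.158 RPKM at d15, 1.43, 0.333, 0.624 and 0.411 RPKM at d22 and 9.23, 4.07, 6.26 and 0.925 RPKM at d36. It was called higher, by 1.56 ± 0.35, adjusted p = 0.00468 (limma), although its d36 replicate 9 was inside the d0 range. Bub1b, the checkpoint protein BubR1, had 0.381, 0.0487, 0.254 and 0.349 RPKM at d0, 0, 0.245, 0.124 and 0.0222 RPKM at d15, 1.37, 0.393, 0.0966 and 0.118 RPKM at d22 and 8.61, 3.8, 6.37 and 0.818 RPKM at d36, and was higher by 2.00 ± 0.36, adjusted p = 0.00118 (limma). Bub1, the checkpoint kinase at the kinetochore, had 6.16, 2.78, 3.83 and 0.407 RPKM at d36 against 0.0339, 0.013, 0 and 0.031 RPKM at d0, with the third d0 library listed at 0. Ttk, the checkpoint kinase Mps1, had 1.23, 1.23, 0.915 and 0.115 RPKM at d36 against 0.0768, 0.00686, 0.0747 and 0.0562 RPKM at d0. Neither Bub1 nor Ttk passed the filter, and both were higher without it (limma, 1.85 ± 0.32, adjusted p = 0.00103 for Bub1 and 0.78 ± 0.17, adjusted p = 0.00394 for Ttk).

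The anaphase machinery held Ube2c, the member with the largest limma estimate on the log2(RPKM + 1) scale. This ubiquitin-conjugating enzyme of the anaphase-promoting complex (chr2:164769929-164772902) had 0.192, 0.362, 0.372 and 0.34 RPKM at d0, 0.311, 0.158, 0.29 and 0.689 RPKM at d15, 3.09, 1.01, 1.83 and 0.419 RPKM at d22 and 46.8, 23.8, 25.4 and 2.06 RPKM at d36. Its d36 mean was 24.5 ± 18.3 RPKM against 0.316 ± 0.0843 RPKM at d0 (SD, n = 4 each), and the log2 fold change was 3.74 ± 0.56, adjusted p = 0.000306 (limma). Cdc20, the activator that turns the complex on at anaphase, had 1.48, 0.874, 0.91 and 1.03 RPKM at d0, 1.24, 0.935, 1.02 and 0.961 RPKM at d15, 2.02, 1.22, 1.21 and 1.44 RPKM at d22 and 5.74, 6.51, 4.65 and 1.69 RPKM at d36. Its d36 libraries were above those of d0, and it was higher by 1.35 ± 0.23, adjusted p = 0.000736 (limma). Cdca3, an adaptor known to trigger mitotic entry, had 0.588, 0.315, 0.386 and 0.639 RPKM at d0, 0.3, 0.404, 0.468 and 0.234 RPKM at d15, 1.72, 0.683, 0.723 and 0.47 RPKM at d22 and 8.43, 5.8, 5.65 and 1.23 RPKM at d36, and was higher by 1.91 ± 0.31, adjusted p = 0.000494 (limma). Espl1, separase, the protease that cuts cohesin, had 3.86, 2.4, 2.57 and 0.445 RPKM at d36 against 0.639, 0.683, 0.605 and 0.446 RPKM at d0, and these ranges overlapped. It was called higher, by 0.93 ± 0.25, adjusted p = 0.0143 (limma). The 11 subunits of the complex itself all passed the filter. Of them 3 were higher, with 16.6% of all entries as background, namely the scaffold subunit Anapc4 (0.93 ± 0.10, adjusted p = 3.54e-05, limma), Anapc1 and Cdc27. Of them 1 was lower, with 7.37% of all entries as background, the catalytic subunit Anapc11 (-0.46 ± 0.10, adjusted p = 0.00482, limma). Their median log2 fold change was 0.09, against 0.04 over all entries.

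The chromosomal passenger complex corrects wrong attachments between kinetochores and microtubules. Its kinase Aurkb had 0, 0.0406, 0.154 and 0.0831 RPKM at d0, 0, 0, 0.0172 and 0.167 RPKM at d15, 1.38, 0.0819, 0.443 and 0.196 RPKM at d22 and 9.14, 4.48, 5.83 and 0.358 RPKM at d36. At d0 and d15 several Aurkb libraries were listed at 0, while 3 d36 libraries exceeded 4 RPKM, and the log2 fold change of d36 over d0 was 2.16 ± 0.41, adjusted p = 0.00164 (limma). Cdca8, borealin (chr4:124918465-124936917), had 0.943, 0.592, 0.735 and 0.418 RPKM at d0, 0.692, 0.309, 0.0335 and 0.288 RPKM at d15, 2.87, 1.24, 1.31 and 0.382 RPKM at d22 and 19.3, 11.7, 12.4 and 2.88 RPKM at d36. It was one of the 5 members whose d36 libraries were all above those of d22 as well as d0, with a log2 fold change over d0 of 2.69 ± 0.38, adjusted p = 0.000176 (limma). Birc5, survivin, did not pass the filter and had 0.0262, 0.0409, 0.0111 and 0.0239 RPKM at d0, 0.0134, 0.0196, 0 and 0.064 RPKM at d15, 0.432, 0.0649, 0.0985 and 0.0961 RPKM at d22 and 3.65, 2.02, 2.27 and 0.344 RPKM at d36. Even its d36 replicate 9 was above each d0 library, and the fit without the filter gave 1.45 ± 0.25, adjusted p = 0.000997 (limma).

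At the centromere and kinetochore, all 6 genes were higher in the fit without the filter and 4 of 4 in the fit with it. Cenpa, the histone H3 variant that marks centromeres (chr5:30666877-30674837), had 1.49, 0.894, 0.667 and 1.25 RPKM at d0, 2.51, 0.818, 1.56 and 1.63 RPKM at d15, 1.12, 0.902, 0.941 and 1.21 RPKM at d22 and 5.47, 5.93, 4.79 and 1.5 RPKM at d36. Its d36 libraries were above every d0 library, the d22 and d0 libraries overlapped, and the log2 fold change of d36 over d0 was 1.30 ± 0.26, adjusted p = 0.00212 (limma). Cenpe, the kinetochore motor that brings chromosomes to the spindle equator, had 0.583, 0.158, 0.155 and 0.185 RPKM at d0, 0.246, 0.133, 0.25 and 0.0413 RPKM at d15, 1.63, 0.514, 0.371 and 0.438 RPKM at d22 and 11.3, 6.19, 7.07 and 0.566 RPKM at d36, and was higher by 2.20 ± 0.42, adjusted p = 0.00166 (limma) with d36 replicate 9 just below the highest d0 library. Spc25, of the Ndc80 complex that grips microtubules, had 0.289, 0.757, 0.391 and 0.405 RPKM at d0, 0.904, 0.269, 0.437 and 0.361 RPKM at d15, 1.76, 1.44, 0.682 and 0.366 RPKM at d22 and 6.71, 4.01, 3.97 and 0.997 RPKM at d36, and was higher by 1.61 ± 0.31, adjusted p = 0.00158 (limma). Its partner Ndc80 had 6.08, 3.27, 4.05 and 0.992 RPKM at d36 against 0.467, 0.147, 0.495 and 0.283 RPKM at d0. Nuf2, of the same complex, had 2.76, 1.89, 1.88 and 0.211 RPKM at d36 against 0.0165, 0.0811, 0.0768 and 0.0302 RPKM at d0. Both sets of d36 libraries lay above those of d0. Cenpf, a kinetochore protein, was listed at 0 in each d0 library and had 1.68, 0.883, 1.04 and 0.0546 RPKM at d36.

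Spindle genes were mostly low at d0. Tpx2, which activates Aurora A on the spindle (chr2:152847964-152895321), had 0, 0.0262, 0.0743 and 0.0268 RPKM at d0, 0.299, 0.205, 0.155 and 0.406 RPKM at d15, 1.08, 0.37, 0.883 and 0.152 RPKM at d22 and 9.09, 3.46, 6.96 and 0.528 RPKM at d36. The d36 libraries were above all d0 libraries, and so were those of d22 and d15. Its log2 fold change of d36 over d0 was 2.23 ± 0.39, adjusted p = 0.000866 (limma). Nusap1, a microtubule-binding protein, had 0.162, 0.284, 0.19 and 0.188 RPKM at d0, 0.17, 0.122, 0.282 and 0.192 RPKM at d15, 1.84, 0.459, 0.581 and 0.279 RPKM at d22 and 6.83, 4.09, 5.4 and 0.992 RPKM at d36, and was higher by 1.98 ± 0.31, adjusted p = 0.000416 (limma). Ckap2l, a spindle protein, had 0.455, 0.577, 0.566 and 0.713 RPKM at d0, 0.297, 0.428, 0.459 and 0.453 RPKM at d15, 1.86, 0.727, 0.791 and 0.624 RPKM at d22 and 4.55, 2.96, 4.4 and 0.761 RPKM at d36, and was higher by 1.27 ± 0.27, adjusted p = 0.0032 (limma). The remaining 3 did not pass the filter. Kif11, the kinesin that pushes the spindle poles apart, had 4.26, 2.59, 3.05 and 0.483 RPKM at d36 against 0.0281, 0.0433, 0.041 and 0.0257 RPKM at d0. Kif2c, a kinesin that shortens microtubules, had 4.18, 2.32, 2.77 and 0.289 RPKM at d36 and was listed at 0 in 3 of the 4 d0 libraries. Hmmr, a spindle assembly protein that is also a hyaluronan receptor, had 6.29, 2.81, 4.58 and 0.353 RPKM at d36 against 0.028, 0.04, 0.0331 and 0.0205 RPKM at d0. In each of them all d36 libraries were above those of d0.

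Cytokinesis genes followed. Prc1, which bundles the microtubules of the midzone (chr7:80294445-80316259), had 0.191, 0.125, 0.152 and 0.191 RPKM at d0, 0.158, 0.148, 0.276 and 0.273 RPKM at d15, 3.45, 1.02, 1.19 and 0.461 RPKM at d22 and 20.3, 10.5, 14 and 1.3 RPKM at d36. The d0 and d15 libraries lay under 0.3 RPKM, those of d22 were all above them, and the log2 fold change of d36 over d0 was 3.04 ± 0.48, adjusted p = 0.000393 (limma). Kif20a, the midzone kinesin Mklp2, had 0.849, 0.732, 0.84 and 0.707 RPKM at d0, 0.756, 0.935, 0.82 and 0.748 RPKM at d15, 2.8, 1.44, 1.76 and 1.07 RPKM at d22 and 18.4, 9.11, 9.36 and 1.67 RPKM at d36. Its d36 libraries were above those of d0 and its log2 fold change was 2.27 ± 0.38, adjusted p = 0.000681 (limma). Racgap1, which with Kif23 forms the centralspindlin complex, had 0.458, 0.368, 0.194 and 0.475 RPKM at d0, 0.53, 0.183, 0.405 and 0.249 RPKM at d15, 1.99, 0.964, 0.866 and 0.7 RPKM at d22 and 14.7, 12.1, 10.5 and 1.87 RPKM at d36, and was higher by 2.73 ± 0.37, adjusted p = 0.000126 (limma). Kif23 had 6.94, 3.69, 3.92 and 0.332 RPKM at d36 against 0.133, 0.132, 0.098 and 0.0289 RPKM at d0. Ect2, the exchange factor that turns on RhoA at the cleavage furrow, had 2.52, 1.17, 1.58 and 0.326 RPKM at d36 against 0.0263, 0.0588, 0.2 and 0.0602 RPKM at d0. Anln, anillin, the scaffold of the contractile ring, had 0.00713, 0.0159, 0.0301 and 0.0489 RPKM at d0, 0.233, 0.128, 0.111 and 0.148 RPKM at d15, 0.747, 0.225, 0.313 and 0.123 RPKM at d22 and 10.6, 4.7, 7.88 and 0.763 RPKM at d36. For Anln each group exceeded d0 without overlap, and d36 also exceeded d22. Ect2 and Anln did not pass the filter, and the fit without it gave 1.06 ± 0.20, adjusted p = 0.00195 for Ect2 and 2.47 ± 0.39, adjusted p = 0.000589 for Anln (limma).

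Chromosome structure held both strong and weak responses. Top2a, the topoisomerase that untangles chromatids (chr11:98992947-99024199), had 0.17, 0.0817, 0.155 and 0.0597 RPKM at d0, 0.08, 0.104, 0.218 and 0.288 RPKM at d15, 2.7, 0.625, 0.95 and 0.327 RPKM at d22 and 19.6, 12.1, 15.6 and 2.68 RPKM at d36. Its d36 mean of 12.5 ± 7.23 RPKM stood against 0.116 ± 0.054 RPKM at d0 (SD, n = 4 each), and the limma log2 fold change, on the log2(RPKM + 1) scale, was 3.35 ± 0.39, adjusted p = 5.39e-05. Mki67, the Ki-67 protein that coats mitotic chromosomes and is used as a proliferation marker (chr7:135689784-135716450), had 0.0802, 0.0679, 0.0476 and 0.0133 RPKM at d0, 0.0553, 0.0104, 0.11 and 0.114 RPKM at d15, 1.58, 0.507, 0.313 and 0.179 RPKM at d22 and 3.38, 1.97, 2.13 and 0.265 RPKM at d36. It was higher by 1.35 ± 0.28, adjusted p = 0.00294 (limma), and its d36 replicate 9 was below 3 of the 4 d22 libraries. The tested condensin subunits had the smallest log2 fold changes of the 27 on the log2(RPKM + 1) scale. Ncapd2 of condensin I had 4.15, 4.31, 3.64 and 5.46 RPKM at d0, 3.41, 5.71, 3.35 and 4.65 RPKM at d15, 7.64, 3.86, 4.98 and 2.83 RPKM at d22 and 13.8, 7.91, 11.1 and 4.51 RPKM at d36, with overlap between d36 and d0 and a log2 fold change of 0.86 ± 0.27, adjusted p = 0.0301 (limma). Its call was lost when d36 replicate 1 or 8, or d0 replicate 1, 2 or 3, was left out. Smc4, the ATPase of both condensins (chr3:69004738-69034623), had 0.963, 1.66, 1.21 and 1.21 RPKM at d0, 2.53, 1.96, 2.07 and 1.83 RPKM at d15, 3.33, 2.49, 2.12 and 3.1 RPKM at d22 and 3.4, 3.45, 3.08 and 3.02 RPKM at d36. Its 4 d36 libraries were close to each other, including replicate 9, and the log2 fold change was 0.91 ± 0.12, adjusted p = 0.000136 (limma). Smc2, its partner, had 0.532, 0.785, 0.692 and 0.243 RPKM at d0, 1.21, 0.94, 0.325 and 0.934 RPKM at d15, 1.71, 1.07, 0.943 and 1.06 RPKM at d22 and 2.06, 1.94, 1.21 and 1.77 RPKM at d36, with 0.81 ± 0.17, adjusted p = 0.00243 (limma). Ncapg of condensin I was listed at 0 in each d0 library and had 2.58, 1.51, 1.85 and 0.177 RPKM at d36.

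**Figure D4:**
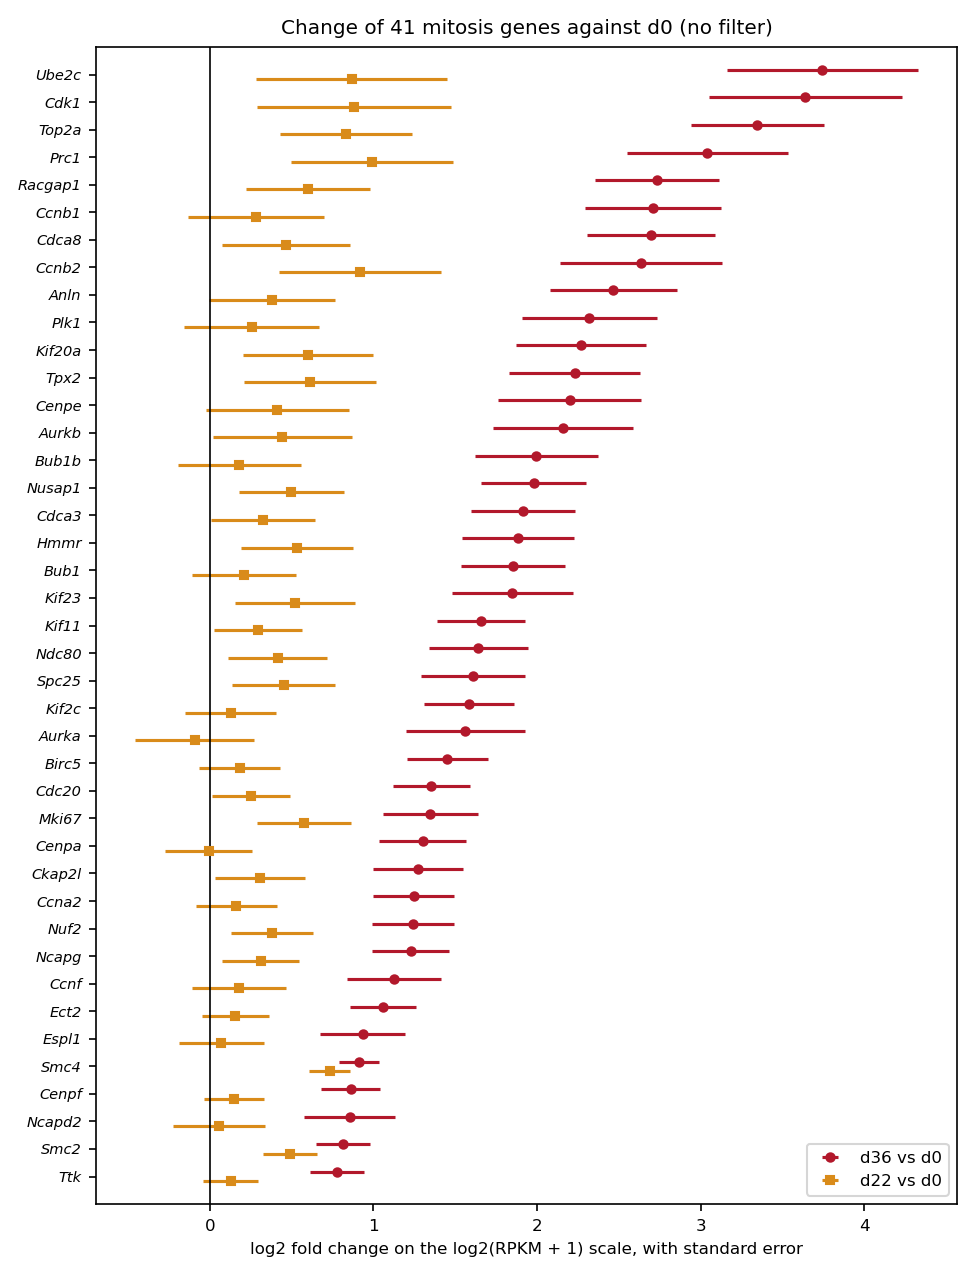
Log2 fold change (log2(RPKM + 1) scale, limma fit without the filter, bars ± SE) of each of the 41 mitosis genes for d36 over d0 and for d22 over d0. All d36 estimates are above 0, up to 3.74 for Ube2c, while those of d22 run from -0.09 to 0.99.

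The order of the d36 libraries was the same in most genes. Replicate 1 was the highest d36 library in 38 of 41 members and replicate 9 the lowest in 40, the exception being Smc2. In 29 members the order was replicate 1, 8, 7, 9. The mean of replicates 1, 7 and 8 was 7.70 times replicate 9 in the median member, from 0.984 times (Smc2) to 22 times (Cenpf). Replicates 1, 7 and 8 were each above every d0, d15 and d22 library in 39 of 41 members, against 12.8% of all entries, and not in Smc2 and Smc4. Replicate 9 was above every d0 library in 36 members, against 37.6% of all entries. It fell within the d22 range in 34 members, above it in 6 and below it in 1.

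Markers of several other cell types were also higher at d36, though not all in the same libraries, and some lists overlapped d0. The 8 carcinoma cell markers summed to 932, 821, 605 and 61.3 RPKM in the d36 libraries, against 8.51 to 12.8 RPKM at d0. Rhox5, a homeobox gene of the germ line and placenta that is active in many mouse tumour lines, had 148, 97.8, 91.6 and 11.1 RPKM at d36 against 0 to 0.196 RPKM at d0. Replicate 9 was thus lowest and replicate 1 highest for these markers, as for the mitosis genes. Replicate 7 was above replicate 8 for these markers, and below it in the sum of the mitosis genes. Lgals1 (galectin 1) had 539, 515, 363 and 31.1 RPKM at d36 against 2.42 to 3.4 RPKM at d0. Of the 8 markers 8, 6, 7 and 7 were above every d0 library in d36 replicates 1, 7, 8 and 9, against 39.0%, 38.3%, 38.7% and 37.6% of all entries. The 11 pan-leukocyte genes summed to 94, 142, 205 and 73 RPKM at d36 against 60.2 to 72.3 RPKM at d0, with 10, 10, 11 and 9 of the 11 above every d0 library. Replicate 8 was highest and replicate 9 lowest for the leukocyte genes. The 10 monocyte and macrophage genes summed to 56.0 to 156 RPKM at d36 against 26.1 to 46.7 RPKM at d0, and all 10 were above every d0 library in each d36 library. No gene of these 3 lists was listed at 0 in a d36 library, while Rhox5, Laptm5, Cd52, Cd48 and 5 monocyte and macrophage genes were at 0 in at least 1 d0 library. The 8 neutrophil genes summed to 2.83, 51.8, 28.3 and 1.39 RPKM at d36 against 0.813 to 1.81 RPKM at d0, and S100a8, S100a9 and Mpo were listed at 0 in every d0 library. The 6 fibroblast genes summed to 44, 32.9, 45 and 3.21 RPKM at d36 against 1.74 to 2.34 RPKM at d0. The 8 lung epithelium genes summed to 345 to 1120 RPKM at d36 against 783 to 1960 RPKM at d0. For the 5 smooth muscle and pericyte genes the sums were 11.8 to 22.8 RPKM against 9.35 to 15.6 RPKM. For the 3 erythroid genes they were 4.69 to 14.5 RPKM against 3.08 to 4.5 RPKM. For the 7 T, NK and B cell genes they were 218 to 1450 RPKM against 138 to 3810 RPKM. The 12 pan-endothelial genes summed to 2970 to 3550 RPKM at d36 against 4130 to 4750 RPKM at d0. The part of these cells in the d36 levels of the mitosis genes was not tested.

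**Figure D5:**
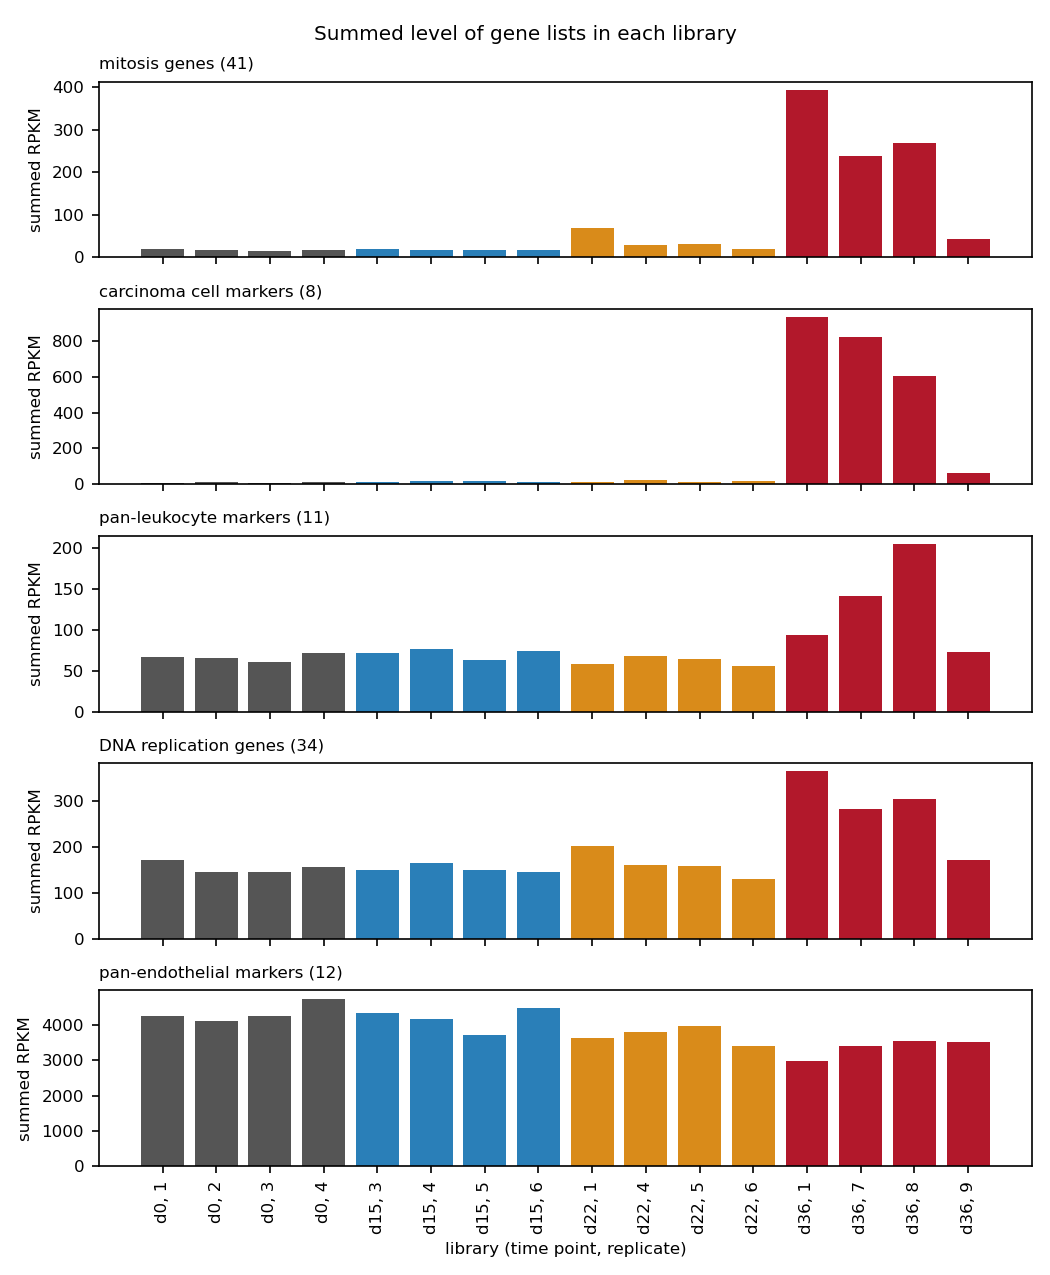
Summed RPKM of the 41 mitosis genes, and of the carcinoma cell, pan-leukocyte, DNA replication and pan-endothelial lists, in each of the 16 libraries (1 bar each, linear axis from 0, order d0, d15, d22, d36). At d36 the mitosis genes (42.9 to 394 RPKM) and the carcinoma cell markers (61.3 to 932 RPKM) are both lowest in replicate 9. The pan-leukocyte (73.0 to 205 RPKM) and DNA replication lists (172 to 363 RPKM) are also lowest there. At d22 the mitosis genes (68.5 RPKM) and the DNA replication list (201 RPKM) are highest in replicate 1, and the carcinoma cell markers in replicate 4 (21.8 RPKM).

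After resection of the primary tumour (d22) most of the genes were higher in single libraries than at d0, but few passed the test. Of the 27 tested members 1 was called higher, Smc4, and 0 were lower, with 8.09% of all entries called higher and 7.10% lower (limma, adjusted p under 0.05). At an unadjusted p under 0.05, 3 were higher. The log2 fold change was above 0 in 25 of the 27, with a median of 0.46 against 0.02 over all entries. Smc4 had 3.33, 2.49, 2.12 and 3.1 RPKM at d22 against 0.963, 1.66, 1.21 and 1.21 RPKM at d0, a log2 fold change of 0.73 ± 0.12, adjusted p = 0.00167. The shared estimate of spread includes the wide d36 group. A limma fit of only d22 and d0 called 11 of 27 members higher, library weights 14, and a pseudocount of 0.1 called 6. For these fits and for the unadjusted p, the share of all entries called was not computed.

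In 19 of 41 members all 4 d22 libraries lay above all 4 d0 libraries, against 13.4% of all entries. These were Ccnb1, Ccnb2, Bub1, Ube2c, Birc5, Cenpf, Nuf2, Kif11, Tpx2, Hmmr, Prc1, Kif20a, Kif23, Racgap1, Anln, Top2a, Mki67, Smc2 and Smc4. Prc1 had 3.45, 1.02, 1.19 and 0.461 RPKM at d22 against 0.191, 0.125, 0.152 and 0.191 RPKM at d0, and a log2 fold change of 0.99 ± 0.48, adjusted p = 0.173 (limma). Top2a had 2.7, 0.625, 0.95 and 0.327 RPKM at d22 against 0.17, 0.0817, 0.155 and 0.0597 RPKM at d0, with 0.83 ± 0.39, adjusted p = 0.165 (limma). In both genes replicate 1 of d22 stood far above the other d22 libraries, and all 4 lay above d0. Mki67 had 1.58, 0.507, 0.313 and 0.179 RPKM at d22 against 0.0802, 0.0679, 0.0476 and 0.0133 RPKM at d0, with 0.57 ± 0.28, adjusted p = 0.184 (limma). Cenpa and Aurka were the 2 tested members with a negative estimate, -0.01 ± 0.26 and -0.09 ± 0.35, and their d22 and d0 libraries overlapped.

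Replicate 1 of d22 was the highest d22 library in 38 of 41 members, and replicate 6 the lowest in 26. Replicates 1, 4, 5 and 6 of d22 were above every d0 library in 40, 30, 30 and 20 of 41 members, against 32.2%, 31.2%, 27.3% and 35.8% of all entries. Replicate 1 of d22 was also above replicate 9 of d36 in 34 members, among them Mki67, Prc1 and Cdk1. Replicate 1 was also the highest d22 library in the sums of DNA replication, other mitosis, and G1 and S phase entry genes. The DNA replication genes summed to 201, 160, 158 and 129 RPKM at d22 against 144 to 172 RPKM at d0. For the other mitosis genes the sums were 226, 188, 192 and 160 RPKM against 215 to 228 RPKM. It was not highest for inhibitors of cyclin-dependent kinases or subunits of the anaphase-promoting complex. In the marker lists given next replicate 1 was not the highest d22 library. The part of these cells in the d22 levels of the mitosis genes was not tested. The carcinoma cell markers summed to 15.8, 21.8, 14.2 and 18.2 RPKM at d22 against 8.51 to 12.8 RPKM at d0, with replicate 4 highest. Rhox5 had 0.321, 0, 0.721 and 0.63 RPKM at d22 against 0 to 0.196 RPKM at d0. The pan-leukocyte genes summed to 57.9, 68.7, 64 and 55.3 RPKM at d22 against 60.2 to 72.3 RPKM at d0, and in replicate 1 of d22 0 of 11 were above every d0 library. The fibroblast genes summed to 1.41, 5, 2.28 and 4.27 RPKM at d22 against 1.74 to 2.34 RPKM at d0, lowest in replicate 1.

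The metastatic stage was also set against the 2 earlier stages with tumour history. Between d36 and d22, 23 of the 27 tested members were called higher at d36 and 0 lower, with 8.73% of all entries called higher and 3.07% lower (limma). Mki67, Ncapd2, Smc2 and Smc4 were not called, with adjusted p of 0.0820, 0.0647, 0.211 and 0.349. Cdca8 had 19.3, 11.7, 12.4 and 2.88 RPKM at d36 against 2.87, 1.24, 1.31 and 0.382 RPKM at d22, and a log2 fold change of 2.23 ± 0.38, adjusted p = 0.00175 (limma). Cenpa had 5.47, 5.93, 4.79 and 1.5 RPKM at d36 against 1.12, 0.902, 0.941 and 1.21 RPKM at d22, with 1.31 ± 0.26, adjusted p = 0.00468 (limma). These 2, with Ccnb1, Bub1 and Anln, were the 5 of 41 members whose d36 libraries were all above those of d22, against 10.0% of all entries. Ube2c had 46.8, 23.8, 25.4 and 2.06 RPKM at d36 against 3.09, 1.01, 1.83 and 0.419 RPKM at d22, with 2.88 ± 0.56, adjusted p = 0.00435 (limma), and replicate 9 of d36 lay below replicate 1 of d22. A fit of only these groups called 4 of 27. For it and for the fits with a library left out, the share of all entries called was not computed. Leaving out d36 replicate 1, 7 or 8 called 12 of 17 each, and leaving out d22 replicate 1 called 15 of 17. Without the filter the fit of all libraries called 37 of 41, and 23 of 41 when d36 replicate 8 or d22 replicate 6 was left out.

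Between d36 and d15, 27 of 27 tested members were higher at d36 and 0 lower, against 9.87% and 1.64% of all entries (limma), and in 36 of 41 the libraries did not overlap, against 9.93% of all entries. The members that passed the filter only with d36 replicates 1, 7 and 8 had to be high at d36 here too. Without the filter 41 of 41 were called. Leaving out d36 replicate 1, 7 or 8 left 17 members past the filter, of which 13, 13 and 14 were called, and 36, 37 and 39 of 41 without the filter. Between d22 and d15, 0 of 27 were called in either direction, with 2.00% of all entries called higher and 1.06% lower (limma); 2 were higher at an unadjusted p under 0.05. In 14 of 41 members all d22 libraries lay above all d15 libraries, against 10.0% of all entries. Hmmr had 0.758, 0.474, 0.555 and 0.232 RPKM at d22 against 0.0628, 0.00559, 0.119 and 0.0639 RPKM at d15, and Racgap1 had 1.99, 0.964, 0.866 and 0.7 RPKM at d22 against 0.53, 0.183, 0.405 and 0.249 RPKM at d15. A fit of only these groups called 3 members, as did library weights, and the share of all entries called was not computed for either.

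With the primary tumour in place (d15) the mitosis genes were not detectably different from d0. Of 27 tested members 0 were called in either direction, with 0.608% of all entries called higher and 0.573% lower (limma); 1 was higher at an unadjusted p under 0.05. The median log2 fold change was 0.01, with 14 estimates above 0 and 13 below. Smc4 had 2.53, 1.96, 2.07 and 1.83 RPKM at d15 against 0.963, 1.66, 1.21 and 1.21 RPKM at d0, with 0.46 ± 0.12, adjusted p = 0.0781 (limma). Its libraries did not overlap, and the same held for Tpx2 and Anln, so 3 of 41 members lay above d0 without overlap, against 5.11% of all entries. Anln had 0.233, 0.128, 0.111 and 0.148 RPKM at d15 against 0.00713, 0.0159, 0.0301 and 0.0489 RPKM at d0. Cdk1 had 0.425, 1.05, 0.526 and 0.43 RPKM at d15 against 0.472, 0.174, 0.305 and 0.533 RPKM at d0, and these overlapped. In the other 38 members the d15 and d0 libraries overlapped.

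The authors' deposited table holds its own log2 fold change and adjusted p-value per time point, whose comparison group is not named. Its fold changes followed the ratio to d0 of the deposited RPKM means (r of 0.983 to 0.988 over the 3 time points). This r was taken only over entries with a higher mean RPKM, which leaves out most members. At d36 the r was 0.851 with the ratio to d15 and 0.778 with the ratio to d22. Of the 34 members with a p-value at d36, the authors' deposited table calls 34 higher at an adjusted p under 0.05 (16.9% of all entries with one). At the same threshold it calls 20 of 31 higher at d22 (16.5%) and 2 of 24 at d15 (5.07%), and 0 lower at any time point. Its fold changes, at any p, were above 0 in 41 of the 41 members at d36, 39 at d22 and 27 at d15. Its median log2 fold change of the members was 0.15 at d15, 1.23 at d22 and 4.17 at d36. For Ccnb1, the highest at d36, the authors' deposited table gives 6.71, and for Ncapd2, the lowest, 1.04. At d22 it gives 2.58 for Top2a (adjusted p = 2.3e-06) and 2.36 for Mki67 (adjusted p = 0.000222), both of which did not pass in the limma fit above. At d15 the 2 were Anln, at 2.02, and Smc4, at 0.75. These folds are on another scale than log2(RPKM + 1).

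Other lists of the cell cycle place the mitosis genes. Of 61 other mitosis genes with a row, 28 were tested for d36 over d0, and 14 were higher and 2 lower, with a median log2 fold change of 0.49 (limma). Without the filter 45 of the 61 were higher and 2 lower, with a median of 0.97. In that fit 17.7% of all entries were higher, and 1123 of 17645 lower. For this and the next lists with the filter, 16.6% of all entries were higher and 7.37% lower at d36, and 8.09% higher and 7.10% lower at d22, each against d0. Cks1b, a subunit of cyclin-dependent kinases, rose by 3.24 ± 0.42, adjusted p = 0.000103, Cks2 by 2.15 ± 0.34, adjusted p = 0.000444, Ckap2 by 2.02 ± 0.29, adjusted p = 0.000216 and the checkpoint gene Mad2l1 by 1.45 ± 0.23, adjusted p = 0.000388 (limma, log2 scale). Pttg1, securin, which separase frees itself from, was lower at d36, with a log2 fold change of -0.45 ± 0.13, adjusted p = 0.0206, and so was Lin37, a DREAM subunit, with -0.45 ± 0.11, adjusted p = 0.00718 (limma). Both were also lower at d22 than at d0, as was Cdc25b, a phosphatase that activates Cdk1, with -0.84 ± 0.11, adjusted p = 0.000385 (limma). Of the 28, 0 were higher and 3 lower at d22, and 3 higher and 5 lower at an unadjusted p under 0.05.

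DNA replication genes, which act in S phase, were higher in 21 of 30 and lower in 0 of 30 at d36 against d0 (limma). Without the filter 25 of 34 were higher and 0 lower, against 17.7% of all entries higher. The median log2 fold change of the 30 was 0.72. The 4 with the smallest p were Tk1 (2.71 ± 0.47, adjusted p = 0.000893), Rrm2 (2.51 ± 0.42, adjusted p = 0.000609), Uhrf1 (2.30 ± 0.35, adjusted p = 0.000337) and Gins2 (1.5 ± 0.26, adjusted p = 0.000736). At d22, 0 of the 30 were called in either direction against d0 (limma), with 1 higher and 0 lower at an unadjusted p under 0.05. Genes of G1 and S phase entry were higher in 4 of 11 at d36, Myc by 4.84 ± 0.75, adjusted p = 0.000361, Ccnd2 by 0.72 ± 0.17, adjusted p = 0.00547, Mycn by 0.47 ± 0.14, adjusted p = 0.0238 and Rb1 by 0.42 ± 0.15, adjusted p = 0.0489 (limma). Among them only Ccnd2, cyclin D2, was also higher at d22, by 0.75 ± 0.17, adjusted p = 0.00752 (limma). Of 5 inhibitors of cyclin-dependent kinases, Cdkn1b (p27) was higher at d36 by 1.13 ± 0.19, adjusted p = 0.000736 and at d22 by 0.86 ± 0.19, adjusted p = 0.00797, and Cdkn2b (p15) was lower at d22, with -1.06 ± 0.26, adjusted p = 0.0129 (limma).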

How the data were processed

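RNA was sequenced from sorted mouse lung endothelial cells in 4 groups of 4 libraries, made from 10 ng of total RNA per the labels' protocols. The authors deposited 1 table of RPKM values per library for 17715 entries, per the file headers. Per the file headers, it also holds the authors' log2 fold changes and adjusted p-values for d15, d22 and d36, without naming what each was compared with. The submitters' processing notes name STAR, DESeq2 and mm10 as used by the authors, without versions. Annotation, transcript lengths, filters and sort markers are not given in the sources used here. The 42 members and all gene lists were chosen with earlier results of these data known.

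Values were analysed as log2(RPKM + 1) in R 4.3.3 with limma 3.58.1 (intensity trend, all 16 libraries in one fit, no covariate). Testing covered the 14303 entries, 27 of them members, that reached 1 RPKM in 4 or more libraries, in 6 two-sided contrasts, with Benjamini-Hochberg adjustment within each contrast at 0.05. The fit was tested on simulated data with the spread of d0, d15 and d22, so that test does not cover the wider spread at d36. A group is called above another without overlap when its lowest library exceeds the other's highest. Depth was approximated from the RPKM step of 1 read: 334 of 924 low entries gave whole reads in all libraries (tolerance 0.1 read, at most 40 reads), none did with deliberately wrong depths, and 59 genes with a single transcript gave the scale. RPKM was not turned into counts and no count test was run. A value near 0.1 RPKM rests on few reads, and intervals were not computed. Values in every library are given for the 3 members of each role with the highest mean over all libraries, for Cdk1, Ccnb1 and Mki67, and for members that failed the filter. For some of these, and for members outside the rule, only the d36 and d0 libraries are printed. Of other cell-cycle lists up to 4 genes with the smallest p and any lower gene are named, and of marker lists up to 4 with the highest mean. Promoter words were searched in RefSeq windows (GRCm38.p6), the same assembly as mm10. Alternatives covered the pseudocount (0.1, 0.5), the filter, quantile normalization, library weights, the replicate block, fits of 2 groups and each library left out. The fits without the filter combined with a pseudocount of 0.1, with library weights or with a library left out were added after the data had been seen.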

Additional observations from a re-analysis of the deposited data

Results flagged for a closer look

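In each group of 4 libraries of the 25 members named by rule, the highest and lowest library were set against the others by Dixon's ratio at its 5% critical value. Of 100 groups tested 8 had such a library, where chance flags about 5. At d36 it was replicate 9 in Cdk1, at 1.94 RPKM against 25.7 to 37.1 RPKM in the other d36 libraries, and in Ccnb2, at 0.633 RPKM against 10.4 to 13.1 RPKM. Both stood on the low side. At d22 it was replicate 1, on the high side, in Cenpe (1.63 RPKM against 0.371 to 0.514 RPKM) and Birc5 (0.432 RPKM against 0.0649 to 0.0985 RPKM). At d15 Aurkb had 0.167 RPKM in replicate 6 against 0 to 0.0172 RPKM. At d0 it was replicate 1, low in Ube2c (0.192 RPKM) and Ccnb2 (0.112 RPKM) and high in Cenpe (0.583 RPKM). The cause was not tested.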

How the results depend on the processing

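In every fit 0 of the members were called lower in any of the 6 comparisons, so the counts are of members higher. Except for the main fit and the fit without the filter, the share of all entries called was not computed. For d36 over d0 (27), removing the filter gave 41, also with a pseudocount of 0.1 or library weights, and each library left out gave 16 to 27, since fewer members then passed the filter. Without the filter a library left out gave 39 to 41. For d36 over d22 (23) the count was 37 without the filter, 39 without the filter and with library weights, 4 in the fit of 2 groups, 12 to 25 with a library left out, and 23 to 39 with a library left out and no filter. For d36 over d15 (27) it was 41 without the filter, 13 to 27 with a library left out and 36 to 41 with both. For d22 over d0 (1) it was 6 with a pseudocount of 0.1, with or without the filter, 14 with library weights, with or without the filter, 12 with the replicate block, 11 in the fit of 2 groups, and 1 with each library left out. For d22 over d15 (0) it was 3 with library weights, with or without the filter, 2 with the replicate block and 3 in the fit of 2 groups. For d15 over d0 (0) it was 1 with quantile normalization and with library weights, with or without the filter. The cause was not tested where the construction does not show it.

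Deviations of same-numbered libraries correlated at -0.11 to 0.22, not all above 0.1. Those of differently numbered libraries were not set beside them. Whether the replicate numbers pair the samples is therefore not settled, and the block is an arithmetic alternative only. Single members were followed only for the 25 named by rule, in d36 over d0, d22 over d0 and d36 over d22. Among these, the members that changed sign all lay near 0 in d22 over d0. Cenpa was 0.0074 with a pseudocount of 0.1, with or without the filter, 0.028 with library weights and 0.023 with library weights and no filter, and -0.11 to 0.085 with a library left out. Ncapd2 was -0.0024 with quantile normalization and -0.15 to 0.24 with a library left out. Aurka was 0.019 with library weights and -0.28 to 0.011 with a library left out. The call of Ncapd2 in d36 over d0 was lost with quantile normalization, the block and the fit of 2 groups. With 4 libraries a group, of which d36 spread widest, and members mostly under 1 RPKM at d0, depth and spread limit what d15 and d22 can show.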
